A study of Mus musculus with 28 samples.

Results

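The 41 genes described here carry out the interferon response and the processing of antigen for MHC class I molecules. They were chosen by name, as the rows of the count tables whose gene symbol is on a list of 41, out of 32544 genes in each table. The list falls into 6 groups by role: 4 transcription factors of the interferon pathway (Stat2, Irf1, Irf7, Irf9), 3 sensors of nucleic acids (Ifih1, Ddx58, Zbp1), 15 antiviral effectors with the ISG15 system (Isg15, Usp18, Ifit1, Ifit2, Ifit3, Ifi44, Ifi27, Rsad2, Oas1a, Oasl2, Mx1, Bst2, Rtp4, Xaf1, Parp14), 9 interferon-inducible GTPases (Gbp2, Gbp3, Gbp7, Igtp, Iigp1, Irgm1, Irgm2, Tgtp1, Ifi47), the ubiquitin-like protein gene Ubd with 3 immunoproteasome subunits (Psmb8, Psmb9, Psmb10), and 6 genes of peptide loading and MHC class I (Tap1, Tap2, Tapbp, B2m, H2-K1, H2-D1). All 41 had a row in both tables and passed the filter on low counts in both, among 14078 genes in males and 13999 in females.

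The values are read counts from RNA sequencing of whole liver, 1 library for each of 28 C57BL/6 mice aged 13 weeks by the labels. Mice with floxed c-Myc (CT, the controls) were compared with mice that lack c-Myc in endothelial cells (EC-Myc KO, KO below). All received tamoxifen, which induces the Cre recombinase, at 5 weeks of age. From 2 weeks after that, for a period of 5 weeks, the food was low in fat (the control diet, CTD) or rich in fat and cholesterol (HFC). The 8 groups are CT on CTD, KO on CTD, CT on HFC and KO on HFC, with 4 males or 3 females in each. The promoter that drives Cre is not given in the sources used here, and RNA of whole liver does not show whether Myc was lost from endothelial cells. In males the Myc level was 6.42 ± 1.32 CPM (counts scaled to a common library size with TMM factors, mean ± SD, n = 4) in CT CTD, 11.2 ± 7.67 in KO CTD, 8.38 ± 4.16 in CT HFC and 11.4 ± 6.16 in KO HFC. In females it was 7.33 ± 4.04, 11.9 ± 7.51, 6.51 ± 2.81 and 10.02 ± 4.70 CPM (n = 3) in the same order, and the genotypes overlapped on each diet. Males and females were deposited in separate tables and were not tested against each other. Mice on CTD carry animal numbers from 298 to 320 and mice on HFC from 412 to 543, so any batch that follows those numbers cannot be told apart from diet.

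Interferons are secreted proteins that warn cells of infection. Type I interferons act through a complex with STAT2 and IRF9 that binds the interferon-stimulated response element (ISRE) of genes such as Isg15, the Ifit genes and Mx1. Interferon-gamma, made by T and NK cells, acts through the gamma-activated site (GAS), and the factor IRF1 then carries the signal on to genes such as those of the guanylate-binding proteins, the immunoproteasome and the TAP transporter. Many genes respond to both. In the immunoproteasome the subunits encoded by Psmb8, Psmb9 and Psmb10 replace constitutive ones and cut proteins into peptides, TAP carries those peptides into the endoplasmic reticulum, tapasin holds TAP near the MHC molecule, and the heavy chains H2-K and H2-D with beta-2-microglobulin show them on the cell surface. In the liver, hepatocytes, Kupffer cells, endothelial cells and lymphocytes can all express these genes, and in bulk tissue a change in the number of such cells cannot be told apart from a change in RNA per cell.

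The promoters of the members that changed most are shown here because the 2 routes differ in the sequence they bind. RefSeq promoter windows on GRCm38.p6 run from 250 bases before to 50 after a gene's start, and 33 of the 41 members have one. The ISRE core was searched as TTTC and TTTC, or GAAA and GAAA, separated by any 2 bases (NN), which is 1 motif read on opposite strands, and the GAS as TTCNNNGAA, which is its own reverse complement. The motifs may overlap each other. For 3 GTPase genes, Tgtp1, Igtp and Irgm2, a GAS stood right before an ISRE core, as in these stretches, written 5′ to 3′ on the gene's strand with the matches in capitals:

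Tgtp1 (chr11:48992308-48992340, minus strand): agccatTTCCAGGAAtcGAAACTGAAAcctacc
Igtp (chr11:58199505-58199537, plus strand): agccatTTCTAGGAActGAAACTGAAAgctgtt
Irgm2 (chr11:58214896-58214928, plus strand): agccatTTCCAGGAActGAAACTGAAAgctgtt
Gbp3 (chr3:142559993-142560020, plus strand): acacagTTTCAGTTTCTATTTCccagat
Isg15 (chr4:156200869-156200902, minus strand): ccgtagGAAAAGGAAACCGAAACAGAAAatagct

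Gbp3 and Isg15 are set beside them because their windows hold ISRE cores, 2 and 3 overlapping matches, and no GAS. The arrangement in Tgtp1, Igtp and Irgm2, a GAS followed by 2 bases and an ISRE core, was searched for after it had been seen. It occurred in 3 of 33 members (9.09%) and in 5 of 27025 genes of the promoter table (0.0185%), the others being Gm12185 and Tgtp2. The Tgtp1 window, placed by the RefSeq start, lies inside the longer GENCODE model of the gene and outside its exons.

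Longer windows follow for the member with the largest called difference between diets in KO males in each role group that could be shown. They stop where an annotated exon begins. The window of H2-D1 lies in an exon of another transcript and is left out.

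Tgtp1 (chr11:48992259-48992496, minus strand): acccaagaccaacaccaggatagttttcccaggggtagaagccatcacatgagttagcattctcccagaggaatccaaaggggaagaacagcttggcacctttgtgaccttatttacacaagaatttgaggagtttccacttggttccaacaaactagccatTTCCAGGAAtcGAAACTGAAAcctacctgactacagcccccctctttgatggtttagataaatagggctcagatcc
Irf1 (chr11:53769764-53770013, plus strand): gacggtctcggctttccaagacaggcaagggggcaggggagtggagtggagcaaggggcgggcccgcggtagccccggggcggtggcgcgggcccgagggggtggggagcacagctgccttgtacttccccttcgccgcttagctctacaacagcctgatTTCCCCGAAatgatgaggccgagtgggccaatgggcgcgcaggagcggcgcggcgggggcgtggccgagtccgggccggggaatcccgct
Ifit2 (chr19:34550444-34550693, plus strand): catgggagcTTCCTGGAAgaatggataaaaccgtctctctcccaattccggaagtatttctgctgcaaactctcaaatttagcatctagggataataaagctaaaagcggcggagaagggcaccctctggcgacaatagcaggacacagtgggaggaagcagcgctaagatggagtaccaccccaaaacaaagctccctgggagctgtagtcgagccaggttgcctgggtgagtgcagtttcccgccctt
Ubd (chr17:37193642-37193891, plus strand): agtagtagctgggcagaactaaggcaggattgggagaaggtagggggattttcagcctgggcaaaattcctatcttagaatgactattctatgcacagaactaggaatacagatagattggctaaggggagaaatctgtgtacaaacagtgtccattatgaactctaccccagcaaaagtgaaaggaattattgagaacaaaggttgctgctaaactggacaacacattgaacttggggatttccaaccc

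The capitals mark a GAS in Irf1, a GAS in Ifit2, both motifs in Tgtp1 and nothing in Ubd. Over the 33 members with a window, 17 (51.5%) held an ISRE core and 9 (27.3%) a GAS, against 1079 (3.99%) and 2582 (9.55%) of 27025 genes. By role, an ISRE core was found in 7 of 8 GTPases with a window, in 6 of 10 antiviral effectors, in 1 of 5 peptide loading genes (B2m) and in 0 of 4 genes of the group of Ubd and the immunoproteasome. A GAS was found in 4 of 8 GTPases, in 3 of 10 antiviral effectors and in Psmb8 of the immunoproteasome. A match describes the letters of these windows only, and elements farther away were not searched.

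In male livers the HFC diet went with higher RNA of the GTPases, Ubd, the immunoproteasome and the MHC class I pathway in both genotypes. Of the 41 members, 18 were higher on HFC than on CTD in CT males and 0 were lower (edgeR's quasi-likelihood F test, adjusted p under 0.05 over all tested genes), while 20% of all tested genes were called, 10.6% higher and 9.4% lower. In KO males 28 were higher and 0 lower, with 29.1% of all genes called, 15.5% higher and 13.6% lower. An unadjusted p under 0.05 was reached by 24 members in CT males, 22 higher and 2 lower, and by 29 in KO males, all higher. The shares of all genes were 33.6% and 39.7%. Scaled by library totals alone, 26 and 34 members were called, but then 29.3% and 39.6% of all genes were called higher and 2.91% and 3.63% lower. The median log2 fold change over the 41 members was 0.33 in CT males and 0.65 in KO males, and over all genes it was -0.01 and -0.02. Of the 18 calls in CT males, 17 held under every alternative tried, and of the 28 in KO males 24 did. The 41 genes were listed with earlier results of these data known, so the counts describe the list and are no independent evidence of its direction.

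**Figure D1:**
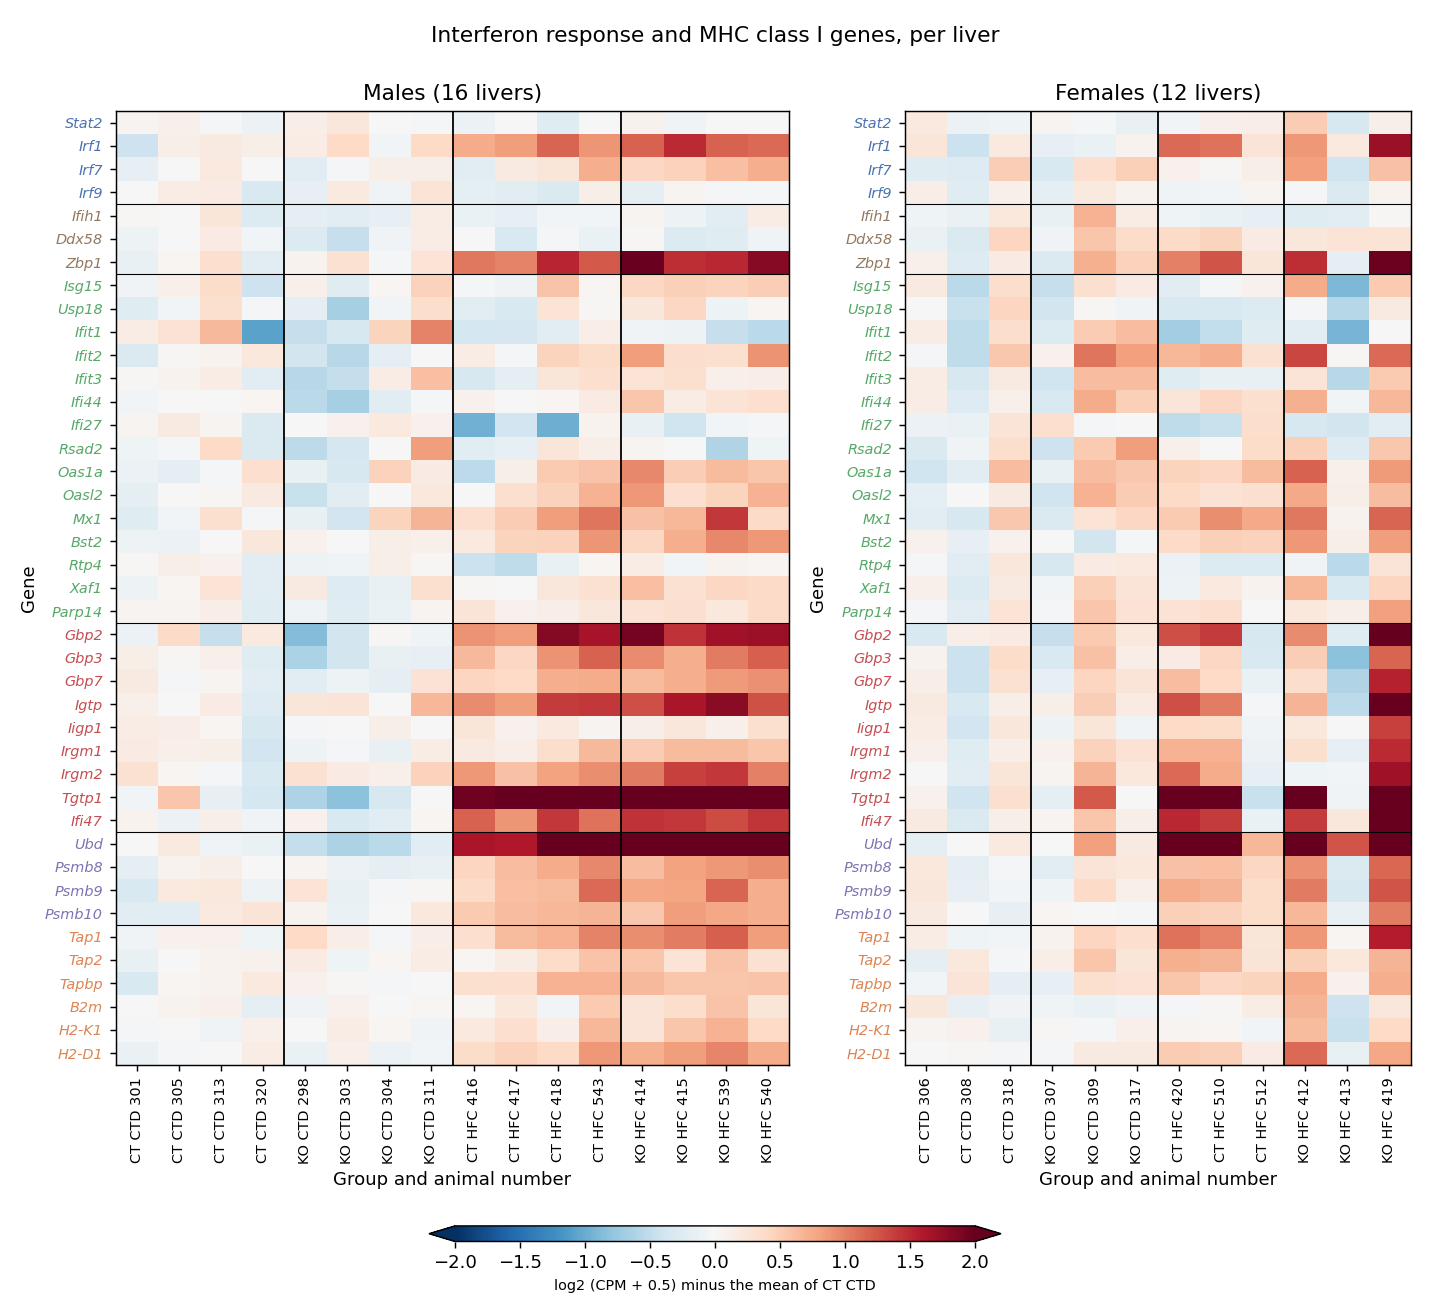
Each cell is 1 gene (rows, grouped by role in the order of the text) in 1 liver (columns, with group and animal number), coloured by log2 (CPM + 0.5) minus the mean of the CT CTD livers of the same table, with the scale ending at 2 in either direction. In males the rows of Ubd, the immunoproteasome and the GTPases other than Iigp1 and Irgm1 are red in all 8 HFC livers, and in females the livers CT HFC 512 and KO HFC 413 look like CTD livers in the GTPase rows.

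Among the transcription factors, Irf1 (chr11:53770014-53778374), which activates genes of the immunoproteasome and of MHC class I, was the one called in both genotypes. In CT males its level was 14.2, 20.9, 21.9 and 20.9 CPM on CTD against 32.4, 34.7, 43.8 and 36.0 CPM on HFC. In KO males it was 21.3, 25.6, 18.5 and 25.5 CPM on CTD against 44.1, 54.6, 44.2 and 42.5 CPM on HFC. Every HFC liver lay above every CTD liver of its genotype. The log2 fold changes were 0.92 ± 0.14 (SE, adjusted p = 0.000407) and 1.03 ± 0.14 (adjusted p = 4.34e-05). Irf7, the factor that amplifies type I interferon production, was called in KO males, at 31.8 to 40.0 CPM on CTD against 49.2 to 61.2 on HFC (log2 0.56 ± 0.15, adjusted p = 0.0105). In CT males Irf7 gave 0.27 ± 0.15 (adjusted p = 0.217), and the difference between the genotypes, 0.29 ± 0.21, had an adjusted p of 0.93. Stat2 and Irf9, which encode parts of the type I complex, had log2 values of -0.09 and -0.15 in CT males and -0.08 and -0.11 in KO males, none of them called. Scaled by library totals alone, these 4 values turned positive (0.14 and 0.08, 0.20 and 0.16).

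Of the 3 sensors, Zbp1 (chr2:173206612-173218923), whose product binds Z-form nucleic acids and can start necroptosis, rose in both genotypes. CT males had 5.84, 6.67, 8.37 and 5.48 CPM on CTD against 14.1, 13.5, 19.6 and 15.8 CPM on HFC. KO males had 6.89, 8.12, 6.34 and 8.0 CPM on CTD against 26.9, 19.1, 19.4 and 24.2 CPM on HFC. The groups of each genotype did not overlap, and the log2 fold changes were 1.26 ± 0.16 (adjusted p = 8.95e-05) and 1.61 ± 0.15 (adjusted p = 1.61e-06). The RNA helicase genes Ifih1 (MDA5) and Ddx58 (RIG-I), which detect viral RNA in the cytosol, gave log2 values of -0.11 each in CT males and 0.08 and 0.01 in KO males, with adjusted p from 0.513 to 0.964. Scaled by library totals alone, the values of Ifih1 and Ddx58 in CT males were 0.13 and 0.12.

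The antiviral effectors were mixed. In CT males 1 of 15 was called, Bst2 (chr8:71534255-71537456), the gene of tetherin, which holds budding virus at the cell surface. Its levels were 74.2, 73.6, 78.6 and 92.7 CPM on CTD against 90.7, 109, 110 and 148 CPM on HFC, so the lowest HFC liver lay within the CTD range (log2 0.52 ± 0.13, adjusted p = 0.0114). In KO males 7 of 15 were called: Bst2, Ifit2, Ifi44, Oas1a, Oasl2, Xaf1 and Parp14. Ifit2, which binds viral RNA, had 3.89, 3.39, 4.48 and 5.20 CPM on CTD against 9.67, 6.76, 6.61 and 10.1 CPM on HFC in KO males (log2 0.97 ± 0.18, adjusted p = 0.000645). In CT males the groups of Ifit2 overlapped, with 4.16 to 6.06 CPM on CTD against 5.12 to 7.26 CPM on HFC (log2 0.26 ± 0.18, adjusted p = 0.334). Ifi44, a cytosolic antiviral protein gene, was at 3.66, 3.29, 4.63 and 5.45 CPM on CTD against 8.30, 6.15, 6.78 and 7.09 CPM on HFC in KO males (log2 0.73 ± 0.14, adjusted p = 0.000897), and at 5.30 to 5.70 CPM on CTD against 5.47 to 6.27 CPM on HFC in CT males (log2 0.08 ± 0.14, adjusted p = 0.728). The calls of Oas1a and Xaf1 in KO males are the least firm of the 7. Oas1a (adjusted p = 0.047) lost its call without any of 6 of the 8 KO males and shares 57.6% of its 50-base sequences with other genes, mainly Oas1g, so its reads may be split. Xaf1 (adjusted p = 0.0379) lost its call without any of 5.

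The other 8 effectors, Isg15, Usp18, Ifit1, Ifit3, Rsad2, Ifi27, Rtp4 and Mx1, were called in neither genotype. Isg15, the ubiquitin-like modifier that gives the system its name, was at 3.01 to 5.51 CPM on CTD against 3.93 to 6.46 on HFC in CT males, and at 3.44 to 5.94 and 5.69 to 6.03 in KO males. The log2 fold changes of Isg15 were 0.15 ± 0.20 and 0.38 ± 0.19 (adjusted p = 0.641 and 0.162). Ifit1, another RNA-binding effector, gave -0.31 ± 0.36 and -0.59 ± 0.36 (adjusted p = 0.588 and 0.238), and Rsad2, the gene of viperin, -0.02 ± 0.27 and -0.24 ± 0.27 (adjusted p = 0.975 and 0.546), but 0.23 and 0.05 when scaled by library totals alone. Mx1 gave the largest values of the 8, 0.76 ± 0.28 and 0.65 ± 0.27, with adjusted p of 0.0645 and 0.0851. In CT males Mx1 was called higher by DESeq2 (adjusted p = 0.0315) and by edgeR on the compared groups alone (0.0224). Library totals in edgeR also called it in CT males and in KO males (adjusted p = 0.0113 in each). Without CT HFC 416 its adjusted p in CT males was 0.0499, and without KO CTD 311 it was 0.0346 in KO males. For Ifi27 the value in CT males was -0.51 ± 0.19 (adjusted p = 0.0704), and DESeq2 called it lower (adjusted p = 0.0344). In KO males Ifi27 was at 58.3 to 67.6 CPM on CTD against 44.4 to 57.9 CPM on HFC, lower without overlap though not called. Scaled by library totals alone, its log2 value in KO males was 0.04. The reads of Ifit3 may be split with Ifit3b, which shares 51.2% of its 50-base sequences.

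Promoter letters and calls can be set side by side. Of the 25 members called higher in KO males that have a promoter window, 10 (40%) held an ISRE core and 9 (36%) a GAS. Of the 8 members not called that have a window, 7 (87.5%) held an ISRE core and 0 a GAS. In CT males, 7 of 17 called members and 10 of 16 others held an ISRE core, and 7 of 17 and 2 of 16 a GAS. These shares rest on few genes, and no test was made of them.

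The GTPases, which gather on the membranes of vacuoles that hold pathogens, gave 7 calls of 9 in CT males and 8 of 9 in KO males, with median log2 fold changes of 0.84 and 1.21. Tgtp1 (chr11:48985327-48994172) had the largest difference of the 9. In CT males it was at 7.33, 11.4, 6.76 and 5.84 CPM on CTD against 30.6, 31.6, 56.5 and 57.3 CPM on HFC. In KO males it was at 4.78, 4.08, 6.00 and 7.66 CPM on CTD against 60.9, 71.3, 74.9 and 66.0 CPM on HFC. The diets did not overlap in either genotype, and the log2 fold changes were 2.49 ± 0.26 (adjusted p = 6.63e-05) and 3.60 ± 0.27 (adjusted p = 9.69e-07), or 5.62-fold and 12.1-fold. Tgtp1 shares 79.4% of its 50-base sequences with its neighbour Tgtp2, and the way such reads were counted is not given, so the pair is best read together. Tgtp2 moved the same way, with log2 values of 1.75 (adjusted p = 0.000394) and 2.31 (adjusted p = 9.76e-06).

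Gbp2 (chr3:142620602-142638008), a guanylate-binding protein gene, was next by size of change among the GTPases. Its levels in CT males were 7.77, 11.2, 5.98 and 9.79 CPM on CTD against 16.2, 15.6, 31.6 and 27.6 CPM on HFC. In KO males they were 4.41, 6.48, 8.63 and 7.90 CPM on CTD against 33.2, 23.8, 28.1 and 29.0 CPM on HFC. The log2 fold changes were 1.39 ± 0.26 (adjusted p = 0.00221) and 2.06 ± 0.27 (adjusted p = 5.84e-05). Gbp3, Gbp7, Igtp, Irgm2 and Ifi47 were also called in both genotypes, at log2 values from 0.59 (Gbp7) to 1.18 (Igtp and Ifi47) in CT males and from 0.84 (Gbp7) to 1.52 (Ifi47) in KO males. Irgm1, a regulator of the other family members, was called in KO males (0.62, adjusted p = 0.00107) and missed the threshold in CT males (0.33, adjusted p = 0.0632). Iigp1 stood apart from its family. It was at 342 to 477 CPM on CTD against 445 to 508 CPM on HFC in CT males, and at 420 to 463 and 461 to 535 CPM in KO males, with log2 values of 0.14 ± 0.10 and 0.18 ± 0.10 (adjusted p = 0.36 and 0.196).

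**Figure D2:**
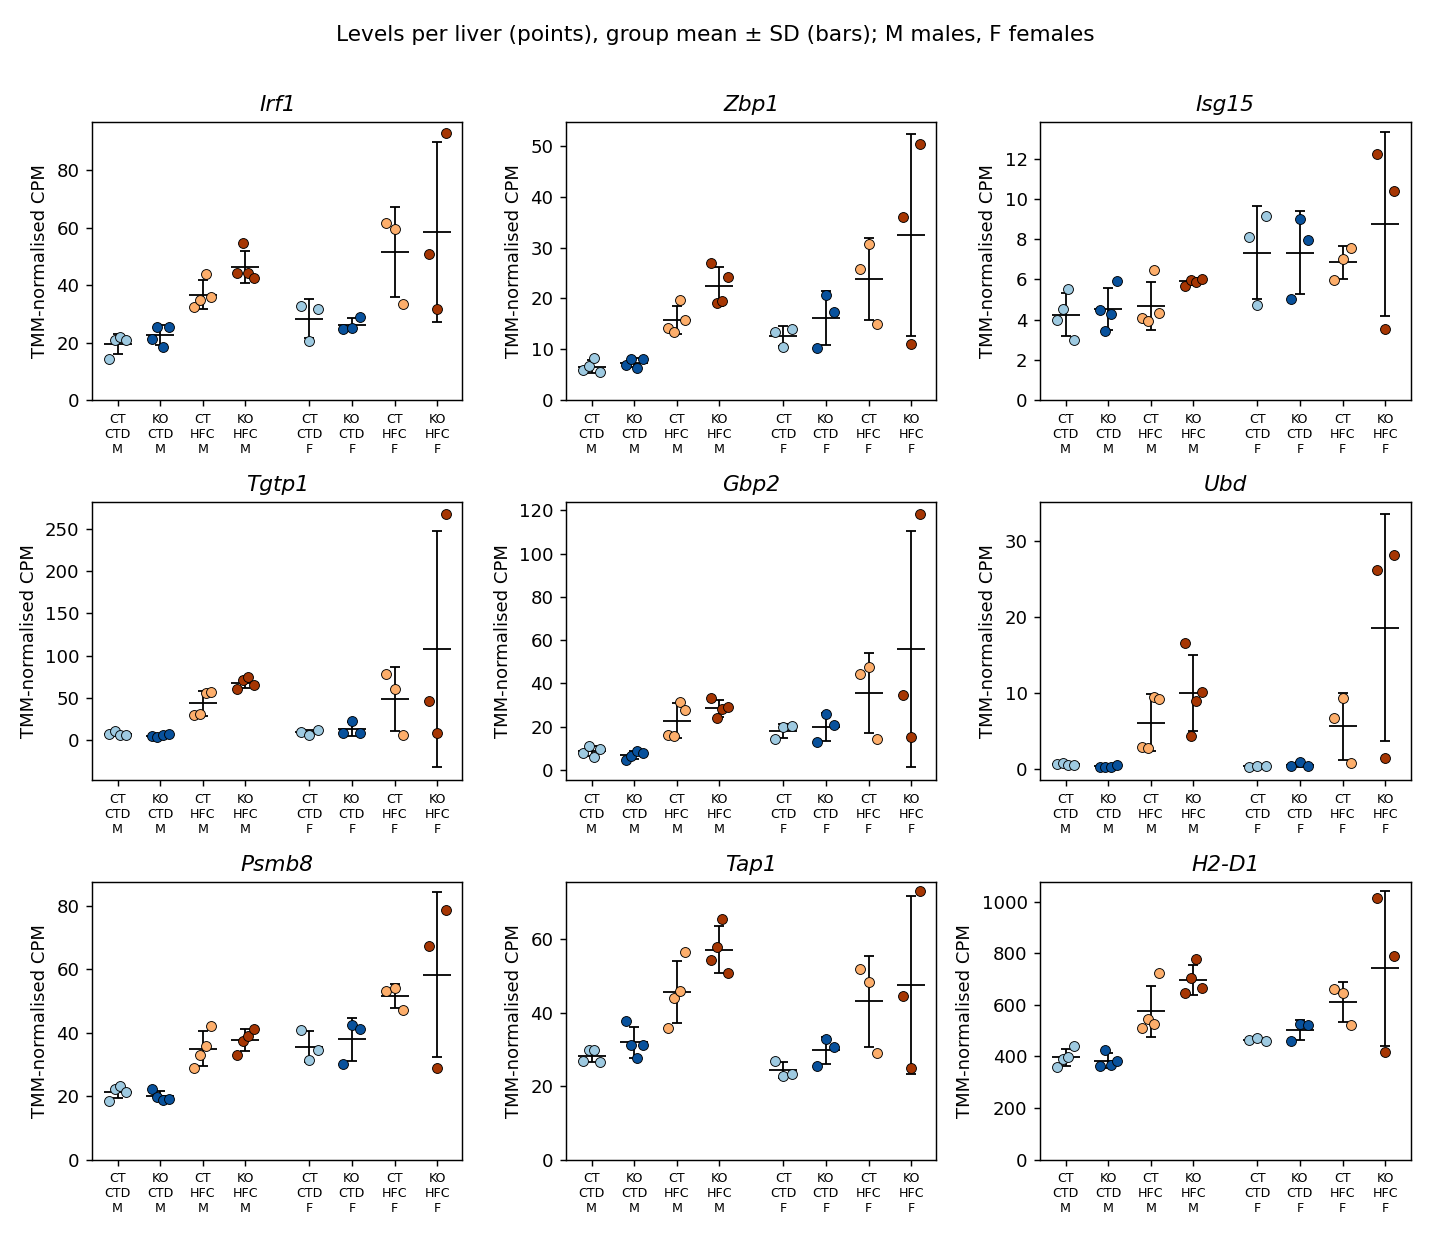
Levels in TMM-normalised CPM on linear axes for 9 members, 1 point per liver, with group means (horizontal marks) and SD (bars), for males (M, 4 per group) and females (F, 3 per group). Tgtp1, Gbp2, Ubd and Zbp1 are higher in every HFC male than in any CTD male, Isg15 overlaps between diets, and 1 female of each HFC group lies low for Tgtp1 and Ubd.

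Ubd (chr17:37193892-37196095) encodes FAT10, a ubiquitin-like tag that sends proteins to the proteasome. It had the lowest levels on CTD and the largest fold change of all members. CT males had 0.594, 0.747, 0.520 and 0.494 CPM on CTD against 2.85, 2.78, 9.49 and 9.17 CPM on HFC. KO males had 0.281, 0.199, 0.244 and 0.442 CPM on CTD against 16.5, 4.35, 8.93 and 10.1 CPM on HFC. The diets did not overlap, while the HFC livers of each genotype were widely spread. The log2 fold changes were 3.36 ± 0.54 (adjusted p = 0.000761) and 5.07 ± 0.59 (adjusted p = 2.27e-05).

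The 3 immunoproteasome subunits rose in both genotypes, by smaller and more even amounts. Psmb8 (chr17:34197721-34201454), the chymotrypsin-like subunit LMP7, was at 18.6, 22.3, 23.1 and 21.5 CPM on CTD against 28.9, 33.0, 35.8 and 42.0 CPM on HFC in CT males. In KO males Psmb8 was at 22.2, 19.7, 18.7 and 19.1 CPM on CTD against 32.9, 37.4, 39.1 and 41 CPM on HFC. No HFC liver overlapped a CTD liver of its genotype, and the log2 fold changes were 0.71 ± 0.11 (adjusted p = 0.000359) and 0.92 ± 0.11 (adjusted p = 9.63e-06). Psmb9 gave 0.72 ± 0.16 (adjusted p = 0.00563) and 0.85 ± 0.16 (adjusted p = 0.000926), and Psmb10 gave 0.62 and 0.70. Of 10 subunits of the constitutive proteasome core, 0 were called in either genotype by edgeR (1 and 0 at an unadjusted p under 0.05), with median log2 fold changes of 0.04 and 0.03.

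Peptide loading and MHC class I genes gave 4 calls of 6 in CT males (Tap1, Tapbp, H2-K1 and H2-D1) and 6 of 6 in KO males. Tap1 (chr17:34187553-34197225), a chain of the peptide transporter, was at 26.9, 29.97, 29.9 and 26.5 CPM on CTD against 36.0, 44.1, 45.9 and 56.5 CPM on HFC in CT males. In KO males Tap1 was at 37.6, 31.1, 27.7 and 31.2 CPM on CTD against 54.2, 57.8, 65.6 and 50.6 CPM on HFC. The diets did not overlap, and the log2 fold changes were 0.69 ± 0.12 (adjusted p = 0.00101) and 0.84 ± 0.12 (adjusted p = 7.23e-05). Exons of Tap1 and Psmb9 overlap on opposite strands, and whether counting used strand is not given. Tap2, the other chain, gave 0.30 (adjusted p = 0.0628) in CT males and 0.37 (adjusted p = 0.0157) in KO males, and Tapbp, the gene of tapasin, 0.51 and 0.57 (adjusted p = 0.00217 and 0.000513).

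H2-D1 (chr17:35262730-35267499), a class I heavy chain gene, was at 360, 391, 396 and 440 CPM on CTD against 510, 547, 524 and 722 CPM on HFC in CT males. In KO males H2-D1 was at 362, 424, 365 and 381 CPM on CTD against 647, 703, 776 and 664 CPM on HFC. Both genotypes rose without overlap, by log2 0.54 ± 0.11 (adjusted p = 0.00274) and 0.86 ± 0.11 (adjusted p = 2.3e-05). H2-K1, the other heavy chain, gave 0.34 ± 0.12 in CT males, where its adjusted p of 0.0482 went above the threshold without any of 5 of the 8 livers (to 0.182 without CT HFC 543), and 0.46 ± 0.12 in KO males (adjusted p = 0.00761). B2m, the light chain, was called in KO males (0.35, adjusted p = 0.0371) but not without any of 6 of those livers, and gave 0.19 in CT males (adjusted p = 0.292). Tap2 lost its call in KO males without either of KO CTD 303 and KO HFC 414 (adjusted p = 0.057 and 0.0528). H2-D1 and H2-K1 share 12.8% and 9.63% of their 50-base sequences with other genes, so part of their reads may be split.

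**Figure D3:**
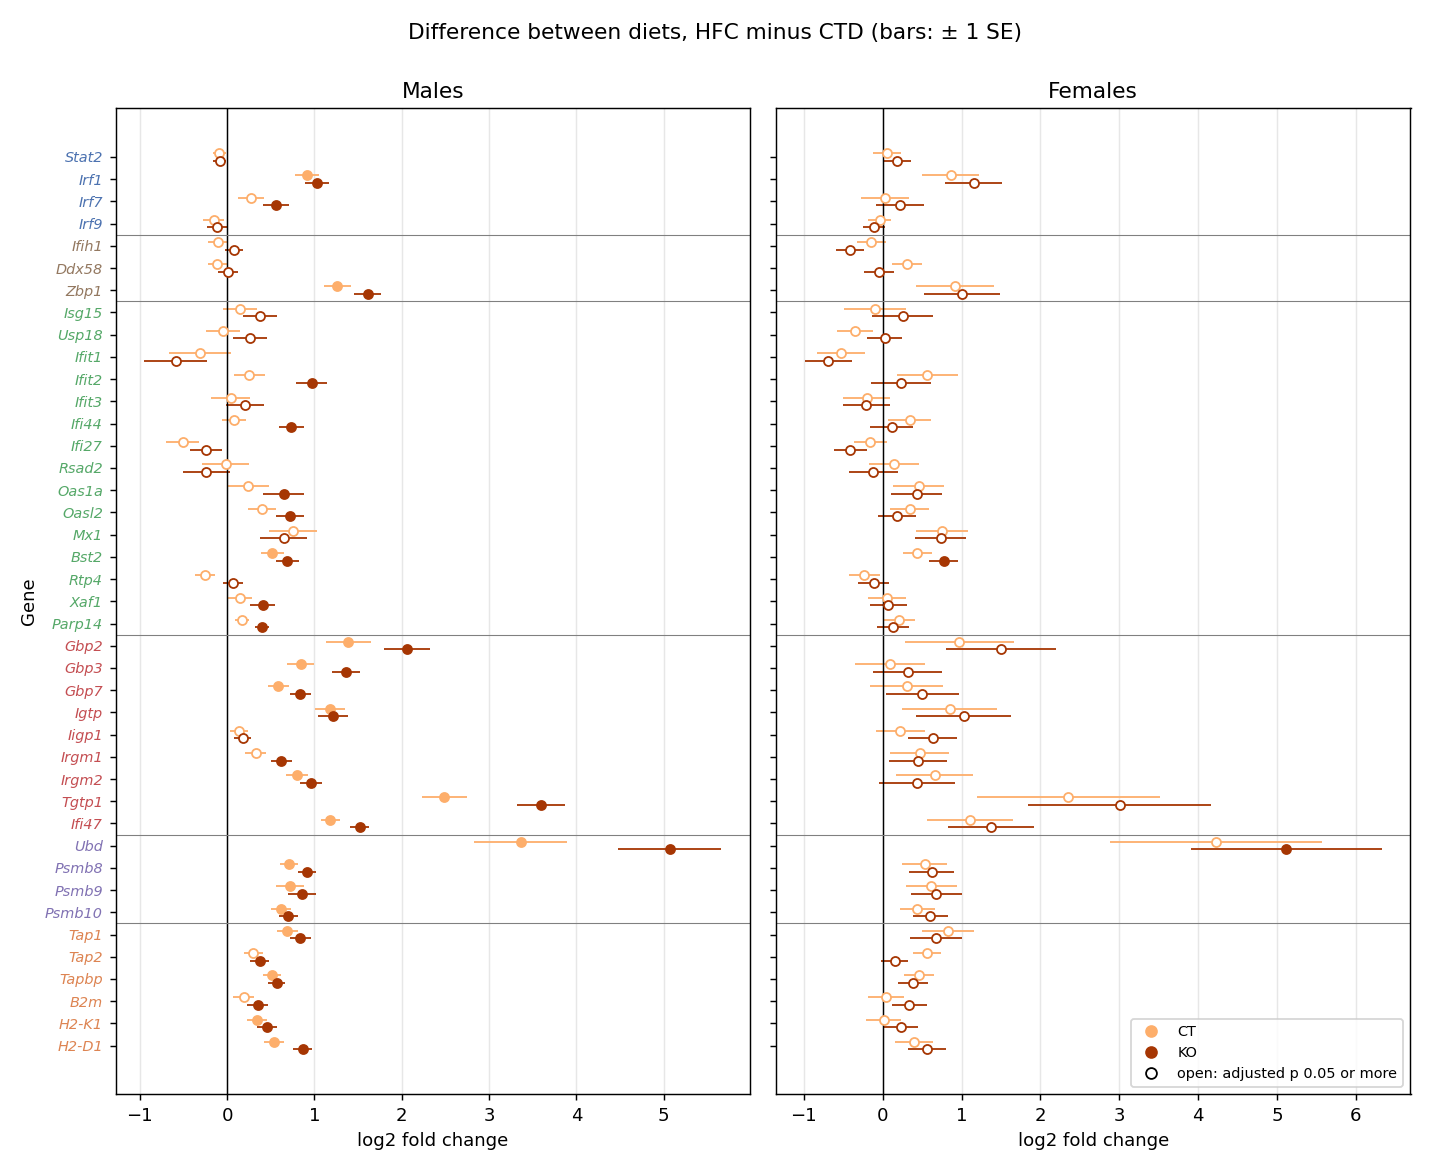
Log2 fold change of HFC against CTD for each member (rows, grouped by role), in CT and KO mice, males left and females right, with bars of 1 SE. Filled points passed adjusted p under 0.05 and open points did not, with 18 filled for CT and 28 for KO in males, and 0 and 2 in females.

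In females the diet differences had wider errors. The median log2 fold change over the members was 0.34 in CT and 0.34 in KO females, and 33 of 41 values were positive in each, where 50.5% and 52.4% of all genes were. Leaving out 1 animal moved the median of KO females to between 0.11 (without KO HFC 419) and 0.63 (without KO HFC 413). In CT females 0 members were called by edgeR, with 7 at an unadjusted p under 0.05 and 1 called by DESeq2 (Ubd), while 2.19% of all genes were called, 0.936% higher and 1.26% lower, and 20.3% had an unadjusted p under 0.05. In KO females 2 were called higher, Bst2 and Ubd, where 8.59% of all genes were called, 3.94% higher and 4.65% lower. An unadjusted p under 0.05 was reached by 10 members, 8 higher and 2 lower, and by 25.7% of all genes. Ubd, at 0.187 to 0.888 CPM in CTD females, passed the filter on low counts through its HFC livers, so its place among the tested genes depended on the diet. Without the filter its adjusted p in edgeR was 0.0698. Scaled by library totals alone, 4 and 9 members were called, with 12% and 24% of all genes called higher and 1.04% and 2.71% lower. The calls of Bst2 and Ubd in KO females were both lost without any of 5 of the 6 livers, with adjusted p from 0.0518 to 0.0938 for Bst2 and from 0.0607 to 0.115 for Ubd. Without KO HFC 413, 14 members were called. The share of all genes called in that fit is not given here, so the 14 is no result about the members.

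A few animals were far from the others of their group. Tgtp1 in females was at 9.996, 6.95 and 11.8 CPM in CT on CTD and at 8.26, 22.6 and 9.33 CPM in KO on CTD. On HFC it was at 78.8, 61.2 and 6.78 CPM in CT and at 47.0, 8.91 and 267 CPM in KO. For Tgtp1, CT HFC 512 thus lay just below all CTD females and KO HFC 413 within their range, and KO HFC 419 lay above all other female livers. The log2 fold changes of Tgtp1 were 2.35 ± 1.16 (adjusted p = 0.288) and 3.003 ± 1.16 (adjusted p = 0.141). Without KO HFC 419 the value in KO females was 1.06. The same livers were low and high for Gbp2, at 44.4, 47.8 and 14.2 CPM in CT on HFC and 34.7, 15.0 and 118 CPM in KO on HFC, against 12.8 to 25.8 CPM over the 6 CTD females.

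Ubd in females was at 0.187, 0.292 and 0.397 CPM in CT on CTD and at 6.69, 9.35 and 0.747 CPM in CT on HFC (log2 4.22 ± 1.34, adjusted p = 0.13). In KO females Ubd was at 0.295, 0.888 and 0.396 CPM on CTD against at 26.2, 1.37 and 28.2 CPM on HFC (log2 5.12 ± 1.21, adjusted p = 0.0299). All HFC livers lay above the CTD livers of their genotype for this gene, the low ones narrowly. Bst2 was at 119, 91.1 and 115 CPM on CTD against 216, 128 and 212 CPM on HFC in KO females (log2 0.77 ± 0.18, adjusted p = 0.0216), and at 125, 105 and 126 CPM against 155, 165 and 162 CPM in CT females (log2 0.44 ± 0.18, adjusted p = 0.207).

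Irf1 in females was at 32.8, 20.4 and 31.6 CPM in CT on CTD and 61.4, 59.4 and 33.3 CPM in CT on HFC. In KO females it was at 24.7, 25.2 and 29.0 CPM on CTD against 50.9, 31.7 and 92.8 CPM on HFC. The groups did not overlap, but CT HFC 512 and KO HFC 413 were again the lowest HFC livers, and the log2 values of 0.86 ± 0.36 and 1.15 ± 0.36 had adjusted p of 0.216 and 0.0757. Tap2 had the smallest p of the class I genes in CT females (0.56 ± 0.17, adjusted p = 0.108) and H2-D1 in KO females (0.56 ± 0.24, adjusted p = 0.17). Zbp1 gave 0.92 ± 0.49 in CT females (adjusted p = 0.323), and Ifih1 gave -0.41 ± 0.18 in KO females (adjusted p = 0.168). The median log2 difference of the 41 members from the CT CTD mean was 0.83 in KO HFC 419, 0.67 in KO HFC 412 and -0.17 in KO HFC 413. It was 0.40, 0.41 and 0.13 in CT HFC 420, 510 and 512. In the CTD livers KO CTD 307, 309 and 317 it was -0.14, 0.46 and 0.21, so KO CTD 309 lay above all CT HFC females.

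Whether the deletion of endothelial c-Myc altered these genes was asked on each diet and as a change of the diet effect. By edgeR 0 of 41 members were called in males or females for KO against CT on CTD, for KO against CT on HFC or for the interaction, and 0% of all genes were called in each. DESeq2 also called 0 members in all 6. In males on CTD 23 of 41 members were higher in KO, with a median log2 difference of 0.01, and 1 had an unadjusted p under 0.05 (Ifi44, -0.38 ± 0.14, adjusted p = 0.73), among 6.74% of all genes. Ubd was the 1 member whose KO livers on CTD all lay below the CT livers, a pattern found in 2.05% of all genes. Its levels there were 0.199 to 0.442 CPM in KO against 0.494 to 0.747 CPM in CT (log2 -0.997 ± 0.78, adjusted p = 0.873). In males on HFC 38 of 41 were higher in KO, with a median of 0.21, where 51.1% of all genes were higher with a median of 0.00. An unadjusted p under 0.05 was reached by 10 of the 41, all higher in KO, and by 4.64% of all genes. The members share livers and move together, so these counts are not 41 separate results.

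The values behind this in HFC males are close together. Zbp1 had the smallest p of the members, with the 13.5 to 19.6 CPM of CT and 19.1 to 26.9 CPM of KO given above overlapping slightly (log2 0.51 ± 0.15, adjusted p = 0.958). Tgtp1 (0.63 ± 0.24) and Irgm2 (0.41 ± 0.13) were the 2 members whose 4 KO livers all lay above the 4 CT livers, a pattern found in 1.09% of all genes. For Irgm2, a GTPase that keeps vacuolar GTPases in check, the levels were 96.0, 78.6, 91.6 and 100 CPM in CT and 107, 135, 140 and 105 CPM in KO on HFC. Irf1 gave 0.34 ± 0.14, Tap1 0.32 ± 0.12, Rtp4 0.30 ± 0.11 and Ubd 0.71 ± 0.41, each with an adjusted p of 0.958.

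**Figure D4:**
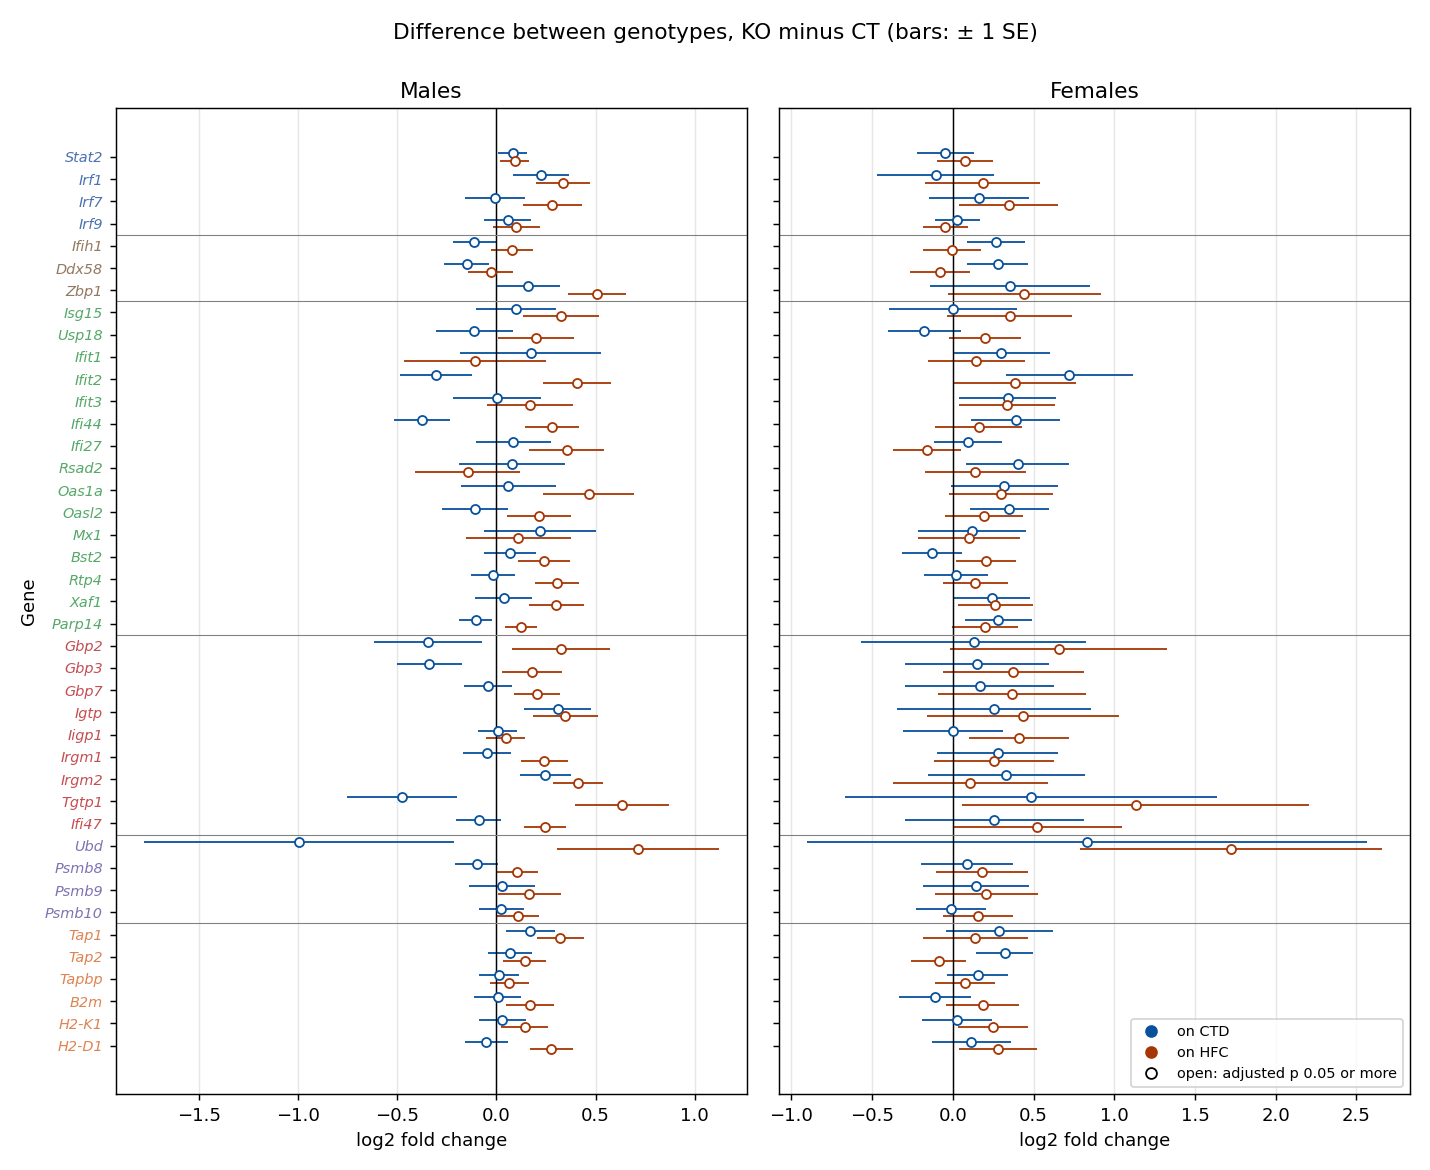
Log2 fold change of KO against CT for each member (rows, grouped by role) on CTD and on HFC, males left and females right, with bars of 1 SE. No point is filled, since none passed adjusted p under 0.05, and on HFC 38 of 41 male and 36 of 41 female values lie right of 0.

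The difference between the diet effects of the 2 genotypes in males uses the same livers. It was positive for 38 of 41 members with a median of 0.21, where 51.3% of all genes were positive. An unadjusted p under 0.05 was reached by 6 members, beside 6.05% of all genes. Ifi44 had the smallest p (0.65 ± 0.20, adjusted p = 0.727), then Tgtp1 (1.11 ± 0.37, adjusted p = 0.73). Ubd gave 1.71 ± 0.88 (adjusted p = 0.85), Zbp1 0.35 ± 0.22 (adjusted p = 0.889) and H2-D1 0.33 ± 0.16 (adjusted p = 0.824). For Ubd the value combined a lower KO level on CTD (-0.997 ± 0.78) with a higher one on HFC (0.71 ± 0.41). The CTD value was the larger in size, and neither was called. The 28 calls in KO males and 18 in CT males therefore do not show a larger diet effect in KO for any single member. In females the median difference between genotypes was 0.17 on CTD and 0.20 on HFC, and 35 and 36 of 41 values were positive, where 52.3% and 53.1% of all genes were. Leaving out 1 animal moved the median on CTD to between 0.08 (without KO CTD 309) and 0.35 (without KO CTD 307), and on HFC to between -0.07 (without KO HFC 419) and 0.48 (without KO HFC 413). On CTD, on HFC and for the interaction 0 members had an unadjusted p under 0.05, beside 3.19%, 2.22% and 3.9% of all genes. The largest female value on HFC was that of Ubd, 1.72 ± 0.93 (adjusted p = 1), and those of Zbp1 (0.44 ± 0.47) and Iigp1 (0.41 ± 0.31) turned negative without KO HFC 419, to -0.02 and -0.13.

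The rest of the pathway was read from lists fixed beside the members. No interferon ligand gene passed the filter on low counts, 0 of 20. The 14 genes of interferon alpha and beta had 3 counts in all over the 16 males and 0 over the 12 females. Ifng, the gene of interferon-gamma, had 3 counts in the 4 CT CTD males, 0 in KO CTD, 9 in CT HFC and 11 in KO HFC. The 0 of 89780736 counts allows a level of up to 0.0334 CPM. In females Ifng had 2, 1, 15 and 25 counts in the same order, and 21 of the 25 were in KO HFC 419, the liver with the highest Tgtp1. KO HFC 413 had 1 count and KO HFC 412 had 3, where the members' median log2 differences from the CT CTD mean were -0.17 and 0.67. CT HFC 420, 510 and 512 had 7, 5 and 3 counts. Counts this low give no fold change, and their error is at least counting error.

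For all lists in males, the shares of all genes to set beside the counts are 10.6% called higher and 9.4% lower in CT. In KO males they are 15.5% and 13.6%. Among 9 tested receptors and kinases 4 rose in CT males and 4 in KO males. Ifngr1, the ligand-binding chain of the interferon-gamma receptor, gave log2 0.78 and 0.93 (adjusted p = 8.07e-05 and 3.09e-06). Of 6 negative regulators 2 rose in each genotype, among them Socs1, which blocks the receptor's kinases (1.85 and 2.48, adjusted p = 0.00408 and 0.00017). Of 14 sensors and adaptors upstream of interferon, 2 rose in CT males, Tlr9 (2.01, adjusted p = 9.8e-05) and Tmem173, the gene of STING (1.11, adjusted p = 0.000573), and 5 rose and 1 fell in KO males. The 2 of 14 are near the 10.6% of all genes. The summed level of the 14 was 343 to 365 CPM in CT CTD and 333 to 354 in CT HFC, and 354 to 385 in KO CTD and 345 to 366 in KO HFC. Of 42 other interferon-stimulated genes, 16 rose and 2 fell in CT males and 26 rose and 2 fell in KO males, among them Gbp4 (1.24 and 1.89) and Irf8 (1.08 and 1.72).

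Of 19 other class I genes and loading factors, 8 rose and 2 fell in CT males and 12 rose and 1 fell in KO males. Their summed level did not rise. In CT males it was 3145 to 3577 CPM on CTD against 2736 to 3020 on HFC, and in KO males 3088 to 3449 against 2994 to 3338. In females it was 3084 to 3470 against 2760 to 2971 CPM in CT and 3108 to 3231 against 2803 to 3217 in KO. The sum was thus lower on HFC without overlap in CT mice, and the diets overlapped in KO mice. Nlrc5, the transactivator of class I genes, gave log2 0.41 and 0.59 (adjusted p = 0.000413 and 4.75e-06). The 7 MHC class II genes all rose in both genotypes of males, with median log2 fold changes of 2.38 and 3.39, where the 6 members of peptide loading and class I had medians of 0.43 and 0.51. Class II is made mainly by professional antigen-presenting cells. In females these lists gave 0 calls in CT and 1 in KO, Il10rb (1.17, adjusted p = 0.0455), with 7 of 7 class II values positive in both genotypes.

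Markers of immune cells moved with these genes. In males 10 of 12 macrophage and Kupffer cell markers rose in CT and 12 of 12 in KO. Their summed level was 394 to 582 CPM in CT CTD, 324 to 402 CPM in KO CTD, 812 to 1278 CPM in CT HFC and 1004 to 1272 CPM in KO HFC. Of 11 tested T and NK cell markers 4 rose in CT males and 7 in KO males, with sums of 6.58 to 9.47, 6.29 to 7.27, 11.6 to 16.3 and 13.2 to 18.6 CPM in the same order of groups. Neutrophil markers rose in 5 and 4 of 6, B cell markers in 1 and 4 of 6, and endothelial markers in 1 and 3 of 10. Of all genes 10.6% and 15.5% were called higher, so the 1 of 6 and 1 of 10 in CT males are near that share. Of 5 markers of plasmacytoid dendritic cells, strong makers of type I interferon, 2 were tested and 0 were called. The summed level of the 5 was 1.73 to 2.76 CPM in CT CTD and 2.91 to 3.80 CPM in CT HFC. It was 1.42 to 2.20 CPM in KO CTD and 1.93 to 3.94 CPM in KO HFC, so the diets overlapped in KO and not in CT. Cholangiocyte markers rose in 0 and 3 of 5, among them Spp1 (log2 1.47, adjusted p = 0.0155 in KO males), and stellate cell and fibroblast markers in 0 and 2 of 7, Col3a1 (1.74, adjusted p = 0.0278) and Des (0.45, adjusted p = 0.0335). Hepatocyte markers fell in 3 and 5 of 8. In females the called markers were Tat, lower in CT (-1.54, adjusted p = 0.0224), and in KO Mpo, higher (3.04, adjusted p = 0.037), and 5 hepatocyte markers, lower. Of all these lists the one marker at 0 in every liver of a group was Ly6g, in CT CTD females. The part of these cells in the results was not tested.

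**Figure D5:**
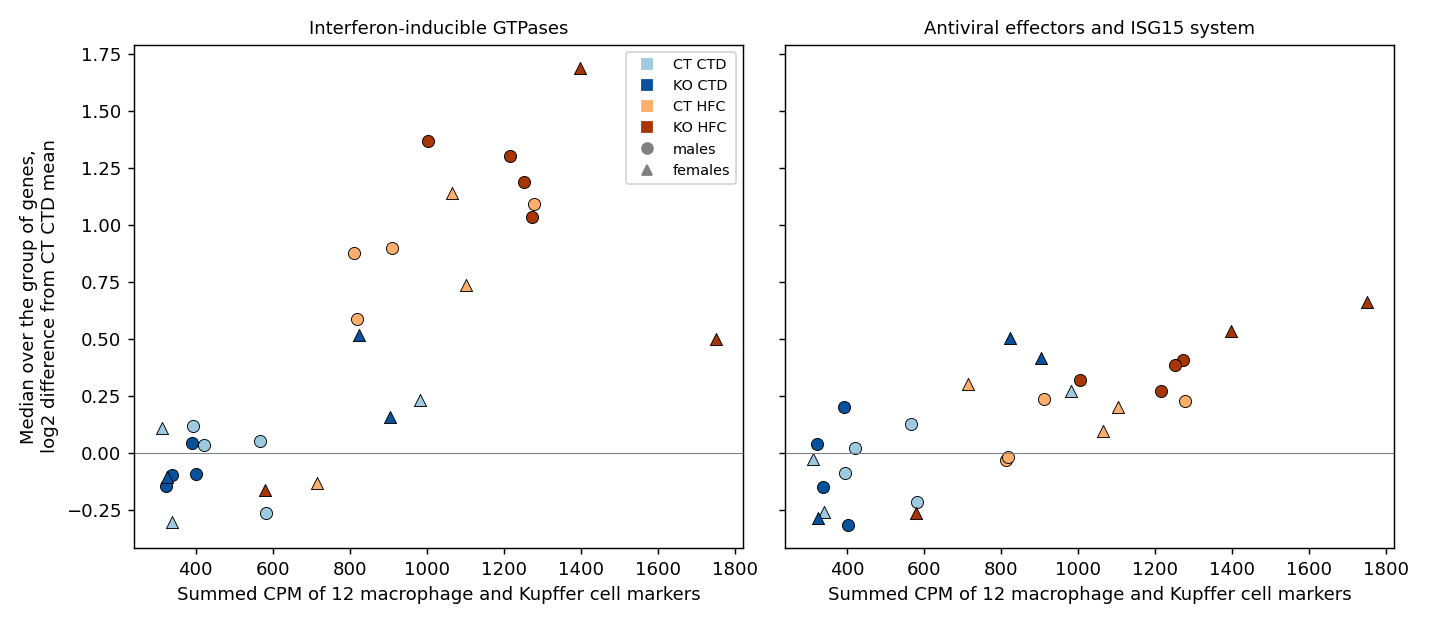
Each point is 1 liver. The x axis is the summed CPM of 12 macrophage and Kupffer cell markers, and the y axis is the median, over the 9 GTPases (left) or the 15 antiviral effectors (right), of the log2 difference from the CT CTD mean of the same table. Male HFC livers lie between 812 and 1278 CPM and between 0.59 and 1.37 for the GTPases, and KO HFC 412, the female with the most marker RNA, has a GTPase median of 0.50.

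In females CT HFC 512 and KO HFC 413, the HFC livers lowest for the GTPases, had the lowest macrophage sums on that diet. The macrophage sum was 1750 CPM in KO HFC 412, 1398 in KO HFC 419 and 579 in KO HFC 413, and 1065, 1103 and 716 CPM in the CT HFC livers 420, 510 and 512. It was 983 CPM in CT CTD 318, 824 in KO CTD 309 and 904 in KO CTD 317, so 3 of 6 CTD livers lay above both low HFC livers. The GTPase median was 1.69 in KO HFC 419, 0.50 in KO HFC 412, 1.14 and 0.73 in CT HFC 420 and 510, and -0.13 and -0.16 in CT HFC 512 and KO HFC 413. In the CTD livers it ran from -0.30 to 0.52. For the antiviral effectors CT HFC 512 was not low, with a median of 0.30 against 0.10 and 0.20 in CT HFC 420 and 510. KO HFC 413 was low for these too, at -0.26. Sums of T and NK cell markers were 9.23 CPM in CT HFC 512 and 8.48 CPM in KO HFC 413, against 21.5 to 26.7 CPM in the other 4 HFC females and 7.20 to 12.5 CPM in the CTD females. Summed MHC class II was 188 and 248 CPM in those 2 livers, against 756 to 1336 CPM in the other HFC females and 121 to 295 CPM in the CTD females. CT HFC 512 and KO HFC 413 thus lay in the CTD range for both lists. KO HFC 412, whose GTPase median of 0.50 also lay in the CTD range, did not, with 22.7 CPM for T and NK cell markers and 1336 CPM for class II. The part of these cells in the female results was not tested.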

How the data were processed

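Per the labels, total RNA of whole liver was sequenced on a BGI DNBSEQ instrument. Males and females have a table each, deposited by the authors as raw counts of reads per gene, unnormalised and with 1 column per animal. FastQC, edgeR and the build GRCm38 (mm10) are named in the submitters' processing notes. How reads were aligned and counted, with which annotation and whether by strand, is not given in the sources used here. The handling of reads that match several genes would affect Tgtp1, Oas1a and Ifit3 most. Library totals were 22154774 to 22652285 counts in males and 18741939 to 19195502 in females, and TMM factors ran from 0.842 to 1.19.

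The counts were analysed in edgeR 4.0.16 (R 4.3.3): TMM factors, filterByExpr, a robust quasi-likelihood fit of the 4 groups of a table, and F tests with Benjamini-Hochberg adjustment across every gene tested, called at adjusted p under 0.05. CPM values are TMM-normalised. The SE is the size of the log2 fold change over the square root of F, an approximation. Replicates are separate animals per the labels. DESeq2 1.42.0, library totals, no filter, fits of the compared groups alone and leaving out each animal were the alternatives. Steps were tested on simulated counts.

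The members and all lists were chosen with earlier results of these data known. In each role group, table and contrast, up to 2 called members with the largest change were picked, or, where none was called, the 1 of smallest p. Not all of these picks are given for KO against CT on CTD, or for the other female contrasts of genotype and interaction. Other members are named after their values were seen, to account for all 41. In the other lists up to 2 called genes were named by adjusted p. Gene positions are from GENCODE M21 on GRCm38, counted from 1, and promoter sequences from RefSeq on GRCm38.p6. Sequence sharing is the percentage of a gene's 50-base transcript sequences found in transcripts of another gene.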

Additional observations from a re-analysis of the deposited data

Results flagged for a closer look

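In groups of 4 males, 68 sets of values were screened for a liver that stood apart from the other 3, by the ratio of its gap to the group's range, with Dixon's critical value at the 95% level as the limit, and 3 exceeded it. Chance alone would give about 1 in 20. Irf1 was lowest in CT CTD 301, at 14.2 CPM with the others at 20.9 to 21.9 CPM. Irf1 was highest in KO HFC 415, at 54.6 CPM with the others at 42.5 to 44.2 CPM. Psmb9 was highest in KO HFC 539, at 28.2 CPM with the others at 20.6 to 21.6 CPM. The calls of Irf1 and Psmb9 between diets in males held without each of these livers.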

How the results depend on the processing

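In males the number of members called between diets stayed between 17 and 26 in CT (18 as reported) and between 24 and 34 in KO (28) over all alternatives, and leaving out 1 animal gave 17 to 22 and 24 to 27. In CT females, with 0 as reported, library totals gave 4, DESeq2 1 and the compared groups alone 2. In KO females, with 2 as reported, library totals gave 9, DESeq2 4, no filter 1 and the compared groups alone 0, and leaving out 1 animal gave 0 to 14. Of these alternatives, shares of all genes are given here for library totals alone. The contrasts of genotype and the interaction gave 0 members under every alternative. With library totals the median of all genes moved to 0.22 in CT and 0.26 in KO males and to 0.30 and 0.32 in females, 29.3% and 39.6% of all genes were called higher in males, with 2.91% and 3.63% lower, and the members' medians were 0.57 and 0.92. The members' median in CT males was 0.21 without CT HFC 543. With library totals, uncalled diet differences turned from negative to positive in 6 members in CT males and 4 in KO males, and in 6 and 5 in females. Leaving out 1 animal changed the sign of 6 named values in females, none of them called. For KO against CT on HFC the log2 values ran from -0.017 to 0.56 for H2-D1 (lowest without KO HFC 412), from -0.023 to 0.85 for Zbp1 and from -0.13 to 0.65 for Iigp1 (lowest without KO HFC 419). For the interaction they ran from -0.21 to 0.59 for Irf1, from -0.13 to 0.65 for Iigp1 and from -0.11 to 0.43 for Psmb10, again lowest without KO HFC 419. The cause was not tested. No paired analysis was possible because each animal has its own number. Groups of 3 females with wide spread limit what could be called there.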
